A study of Mus musculus with 2 samples.

Results

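The genes described are Taf15, Ewsr1, Raly and Tardbp, which encode RNA-binding proteins, measured in mouse hybridoma cells given the bursal peptide BSP-II and in untreated ones. A probe was taken as belonging to one of them if it was not a control and its RefSeq accession mapped to the gene. The rule found 8 probes of 41174 on the arrays, and the 4 genes are among 17305 to which a probe could be assigned. Taf15 had 2 probes, Raly 1, Ewsr1 2 and Tardbp 3, each printed as 1 spot. Taf15 and Raly were chosen by their log2 difference between these arrays, and Ewsr1 and Tardbp encode proteins related to them in family or role. The differences of Taf15 and Raly are therefore given as a description.

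A hybridoma is a fusion of an antibody-forming B cell with an immortal myeloma cell, and the line here is labelled 1H5F9. One array held RNA of cells exposed to 5 µg/ml BSP-II for 4 h, and the other held RNA of cells kept for 4 h at 0 µg/ml, called untreated. Both cultures were in RPMI medium with fetal bovine serum, and BSP-II, a peptide from the bursa of Fabricius (the organ of B cell development in birds), was the labelled difference between them. The design text speaks of 2 independent experiments, but both arrays carry replicate number 1, so each condition is 1 array of 1 cell line, with no replicate check and no test. Total RNA was measured, and a lower signal can stand for fewer cells that express a gene or for less RNA in each of them, which cannot be told apart.

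The FET family, to which EWSR1 and TAF15 belong, is a set of nuclear proteins that bind RNA and DNA. Each joins a prion-like low-complexity region, which lets the proteins condense with one another and with RNA polymerase II, to an RNA recognition motif, a zinc finger and arginine-glycine repeats. They take part in transcription and in splicing, TAF15 is found with part of the TFIID transcription initiation complex, and all are known as fusion partners in sarcomas and leukaemias. RALY is a relative of hnRNP C and binds uridine-rich stretches of nuclear RNA. TARDBP encodes the protein TDP-43, a splicing repressor that also limits the amount of its own mRNA and that aggregates in motor neuron disease.

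The promoter windows of the 4 genes are shown because 2 of the genes, Taf15 and Raly, had lower signal with BSP-II than untreated, and the other two were close to level. The sequences are from RefSeq, build GRCm38.p6, read 5′ to 3′ on the strand of the gene, from 250 bases before to 50 bases after the start site. All 4 genes matched 1 window each. Capitals mark matches to the CCAAT box, which reads ATTGG when it lies on the opposite strand, and to the motif GGGCGG, which then reads CCGCCC.
Taf15, chr11:83472858-83473157, plus strand: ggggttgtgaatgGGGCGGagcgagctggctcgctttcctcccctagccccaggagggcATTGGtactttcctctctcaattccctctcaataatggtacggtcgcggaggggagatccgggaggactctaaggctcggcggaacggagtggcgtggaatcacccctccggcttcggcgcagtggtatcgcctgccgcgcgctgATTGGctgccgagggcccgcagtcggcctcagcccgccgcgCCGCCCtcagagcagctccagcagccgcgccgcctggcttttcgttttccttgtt
Raly, chr2:154790860-154791159, plus strand: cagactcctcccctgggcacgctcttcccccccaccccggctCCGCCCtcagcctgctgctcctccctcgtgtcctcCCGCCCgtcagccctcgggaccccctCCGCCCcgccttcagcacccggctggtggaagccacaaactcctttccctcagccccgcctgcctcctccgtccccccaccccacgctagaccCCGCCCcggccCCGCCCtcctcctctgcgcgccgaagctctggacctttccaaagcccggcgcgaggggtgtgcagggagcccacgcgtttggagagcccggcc
Ewsr1, chr11:5099047-5099346, minus strand: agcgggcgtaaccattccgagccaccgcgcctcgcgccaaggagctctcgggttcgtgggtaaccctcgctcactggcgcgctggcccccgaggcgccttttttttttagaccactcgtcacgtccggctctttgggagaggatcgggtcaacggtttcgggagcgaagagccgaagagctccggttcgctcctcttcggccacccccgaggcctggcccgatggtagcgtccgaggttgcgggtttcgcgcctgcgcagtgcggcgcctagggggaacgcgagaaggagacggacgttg
Tardbp, chr4:148626947-148627246, minus strand: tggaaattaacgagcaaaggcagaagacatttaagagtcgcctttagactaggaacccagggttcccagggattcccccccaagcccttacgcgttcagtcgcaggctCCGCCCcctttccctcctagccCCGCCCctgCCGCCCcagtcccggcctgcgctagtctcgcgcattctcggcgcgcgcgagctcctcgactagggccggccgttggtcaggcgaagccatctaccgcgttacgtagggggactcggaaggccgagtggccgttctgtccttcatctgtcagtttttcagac

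The Taf15 window held ATTGG, the CCAAT box read on the other strand, 191 and 46 bases before the start, GGGCGG 237 bases before it and CCGCCC 5 bases before it. The Raly window held CCGCCC at 5 places, 208 to 43 bases before the start, and no CCAAT. The Tardbp window held CCGCCC at 3 places, 142 to 111 bases before the start, and the Ewsr1 window held neither motif. GGGCGG or its reverse was thus found in the windows of Taf15 and Raly, whose signal was lower with BSP-II, and in that of Tardbp, which was close to level. Among all 32851 RefSeq windows of this length, 37.4% held CCAAT and 35.7% held GGGCGG on either strand. TATAAA (13.6% of all windows), CACGTG (7.15%), CCGGAAG (8.86%) and TGACGTCA (1.79%) were found in none of the 4. No motif overlapped another. The windows were rich in G and C, with 65.7% in Taf15, 73.7% in Raly, 66.3% in Ewsr1 and 62.0% in Tardbp, against a median of 52.7% over all windows. A match is a description of these letters and says nothing of whether a factor binds.

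Signals are Agilent's processed signal, a background-subtracted spot brightness with no unit. Log2 differences are BSP-II minus untreated after each array was divided by the 75th percentile of its own spots, 356 on the BSP-II array and 309 on the untreated array. A probe counts as detected where Agilent's software called its spot well above background, and 24455 probes were detected on both arrays. Of these, 12228 at or above the median level are called brighter. A gene is called brighter by a cut of its own: the median level of the brightest probes of 12852 measured genes, which 6426 reached. Median local background was 37 on the BSP-II array and 46 on the untreated array, and no gene probe was saturated. The median log2 difference over the detected probes was −0.04, with quartiles of −0.22 and 0.11. Of the B lineage and plasma cell markers, 14 of 15 were detected on both arrays, and their signals summed to 275801 with BSP-II and 260113 untreated before scaling. After scaling their median log2 difference was −0.21, and 3 of 14 lay above the median of all genes. The T cell, myeloid, erythroid and fibroblast lists summed to between 94.7 and 870 on the BSP-II array and between 92.3 and 793 on the untreated array, also before scaling, with median differences between −0.34 and 0.01. Of the markers with a probe, 5 of 7 T cell, 4 of 6 myeloid, 3 of 3 erythroid and 3 of 6 fibroblast markers were detected on both arrays. Pax5 of the B lineage and Cd8a, Lyz2, Dcn and Pdgfra of the other lists were not detected on either array.

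Taf15 was the lowest of the 4 genes. Its brighter probe (A_51_P257583, on transcript NM_027427, array row 430 and column 26) had a processed signal of 1189 with BSP-II and 2808 untreated. The spot was thus far above local background on both arrays, 38 with BSP-II and 46 untreated, and was dimmer with BSP-II. The log2 difference was −1.44, a 2.72-fold lower signal. Agilent's error model, which covers 1 spot and leaves out differences between cultures and hybridisations, gave 0.20 for this difference. The raw median brightness, from which no background had been subtracted, was 1104 with BSP-II and 2660 untreated. The probe ranked 88 from the lowest of the 24455 detected probes and 6 from the lowest of the 12228 brighter ones.

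The other probe of Taf15 gave no second reading of the gene. It matched the same transcript NM_027427 (A_52_P206573, row 443 and column 14). Its signal was 12.1 with BSP-II and 10.7 untreated, and it was well above background on the BSP-II array only. The lowest signal called well above background on the untreated array was 11.8, and against that floor the scaled BSP-II signal was not higher, so no fold can be given. The difference of Taf15 therefore rested on 1 spot of 1 probe.

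**Figure D1:**
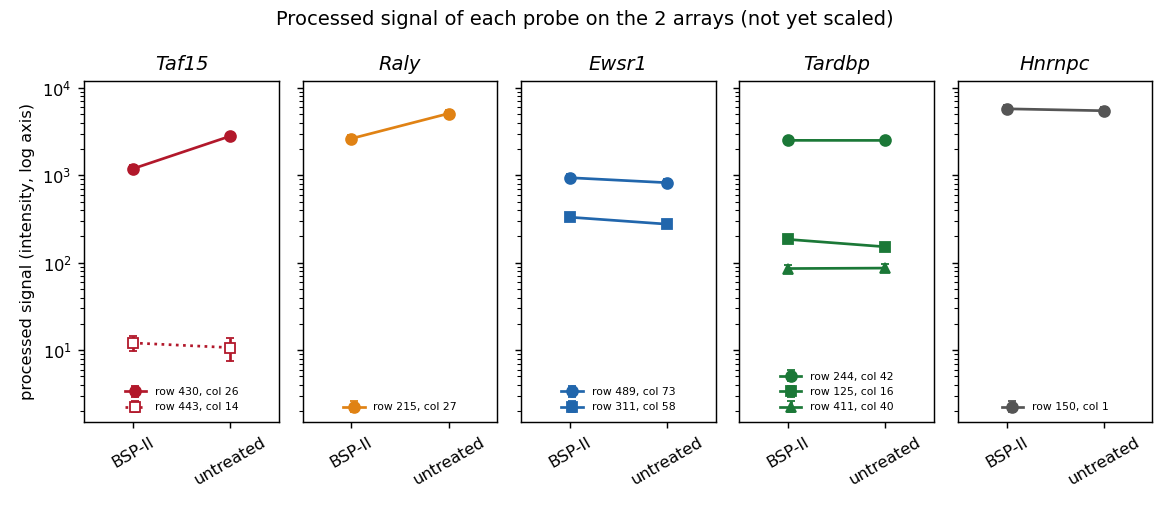
Processed signal (log axis) of each probe on the BSP-II array (left) and the untreated array (right), with 1 marker per probe named by its array row and column and bars for Agilent's per-spot error. The filled Taf15 marker is at 1189 with BSP-II and 2808 untreated and that of Raly at 2633 with BSP-II and 5098 untreated, while the probes of Ewsr1, Tardbp and Hnrnpc differ by less than 1.5-fold; the open Taf15 marker was not well above background on the untreated array.

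Raly had 1 probe (A_51_P337246, on transcript NM_023130, row 215 and column 27). Its processed signal was 2633 with BSP-II and 5098 untreated, against local background of 39 with BSP-II and 44.5 untreated. As with Taf15, the spot was bright on both arrays and dimmer with BSP-II. The log2 difference was −1.16, a 2.23-fold lower signal, with an Agilent error of 0.20. The raw median brightness was 2920 with BSP-II and 5590 untreated. It ranked 193 from the lowest of all detected probes and 19 from the lowest of the brighter ones. No other probe of Raly was on the arrays by the accession rule, so this difference too rested on 1 spot.

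Ewsr1, the FET member best known from its fusion with FLI1 in Ewing sarcoma, was level between the arrays by both of its probes. The probe at row 489 and column 73 had a signal of 939 with BSP-II and 824 untreated, a log2 difference of −0.02 after scaling. The probe at row 311 and column 58 had 332 with BSP-II and 276 untreated, a difference of 0.06. Both probes match transcript NM_007968, and their differences lie 0.07 apart. Local background beside the first of these spots was 38 with BSP-II and 60 untreated, and Agilent's software flagged it as unusual on the untreated array.

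Tardbp was also close to level by its 3 probes. The brightest, at row 244 and column 42, had 2514 with BSP-II and 2511 untreated, a scaled log2 difference of −0.20. The probe at row 411 and column 40, on the same transcript NM_145556, had 85.8 with BSP-II and 86.8 untreated, a difference of −0.22. The probe at row 125 and column 16, on another transcript of the gene (NM_001008546), had 185 with BSP-II and 152 untreated, a difference of 0.08, and its local background was flagged on both arrays. The 3 values span 0.30, and their errors were 0.20 to 0.21, so the sign for Tardbp was not the same for every probe.

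The differences of the 4 genes thus fell apart into Taf15 and Raly at −1.44 and −1.16 and the 5 detected probes of Ewsr1 and Tardbp between −0.22 and 0.08. Of the 7 detected probes of the 4 genes, 2 were at least 2-fold lower and none was 2-fold higher, where 1.21% of all detected probes were at least 2-fold lower and 0.282% at least 2-fold higher. Among the brighter probes the share at least 2-fold lower was 0.213%. Since Taf15 and Raly were picked for this difference, nothing is read from their count. By the brightest probe of each of 12852 genes, Taf15 ranked 39 from the lowest, Raly 86, Tardbp 2962 and Ewsr1 6682. Ewsr1 thus lay near the middle of all genes and Tardbp below it. Among the 6426 brighter genes, Taf15 ranked 3 from the lowest, Raly 8, Tardbp 638 and Ewsr1 2980. Tardbp was thus nearer the low end among genes of like brightness.

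**Figure D2:**
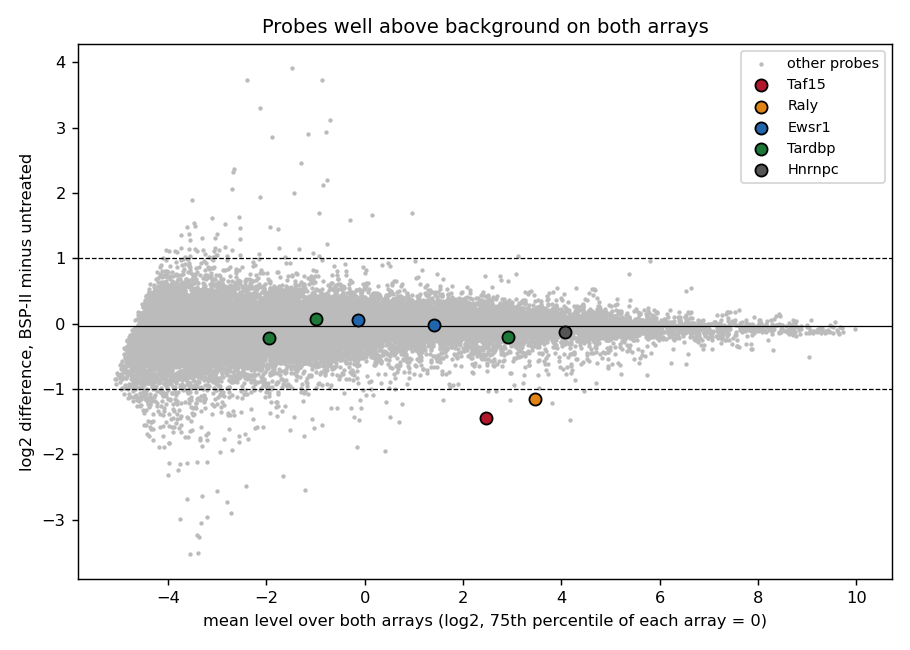
Each point is 1 of the 24455 probes detected on both arrays, with its mean level (log2) across and its log2 difference, BSP-II minus untreated, upward; the solid line is the median of −0.04 and the dashed lines mark 2-fold. Taf15 (−1.44) and Raly (−1.16) lie below the lower dashed line at high level, and the probes of Ewsr1, Tardbp and Hnrnpc lie between −0.22 and 0.08.

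The measured relative of Raly was close to level between the arrays. Hnrnpc, which encodes the nuclear pre-mRNA packaging protein that RALY resembles, had 5772 with BSP-II and 5487 untreated, a difference of −0.13. Ralyl, a further relative of Raly, was not above background on either array.

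Because the differences of Taf15 and Raly each rested on 1 spot, the spots printed around them were examined. Around the Taf15 spot, 26 detected spots lay within 3 rows and columns, with a median difference of 0.04 and a range of −0.85 to 0.99, and none was 2-fold different. Within 10 rows and columns there were 235 spots with a median of 0.06, of which 1 was at least 2-fold lower and 2 at least 2-fold higher. The difference of Taf15 less that median was −1.504.

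Around the Raly spot, 27 detected spots within 3 rows and columns had a median of −0.07 and a range of −0.75 to 0.65, again with none 2-fold different. Of the 247 spots within 10 rows and columns, whose median was −0.05, 0 were 2-fold different in either direction. Raly lay at −1.11 relative to that median. The dim Tardbp spot at row 411 had the most uneven surroundings of the 4 genes, with 2 of 29 spots within 3 rows and columns and 17 of 243 within 10 at least 2-fold lower.

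**Figure D3:**
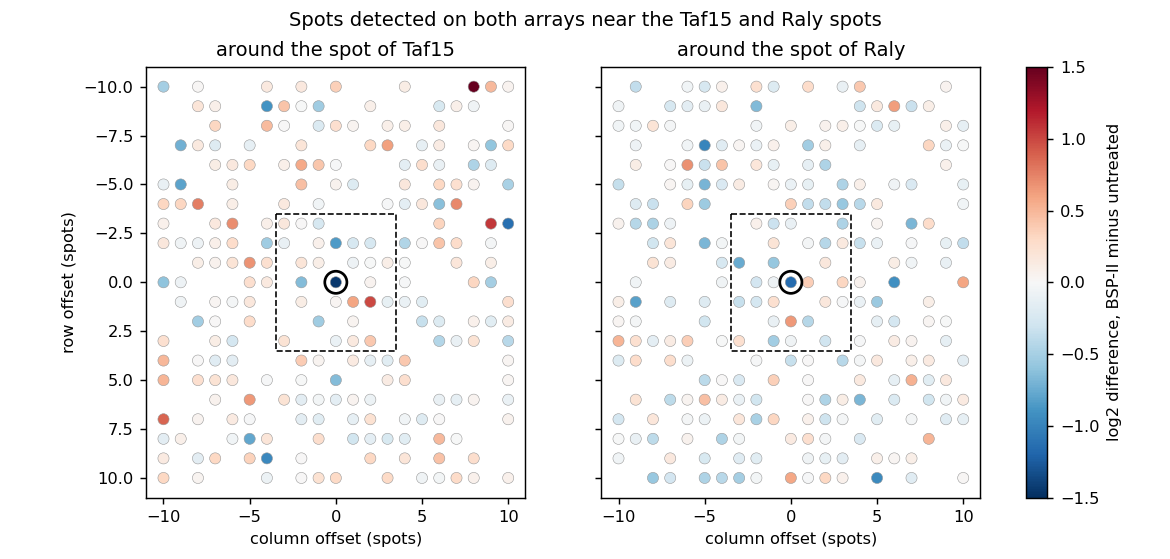
Log2 differences (colour, BSP-II minus untreated, shown up to 1.5 either way) of spots detected on both arrays around the Taf15 spot (left) and the Raly spot (right), by row and column offset in spots; the circle marks the gene's spot and the dashed box the nearest 3 rows and columns. The circled spots are at −1.44 and −1.16, and no other spot in either box reaches 1 in size.

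Other probes of a gene can disagree on these arrays, which bears on any value from 1 probe. Over 4029 genes with at least 2 detected probes, the range between a gene's probes had a median of 0.16 and a 90th percentile of 0.56. Among brighter genes, those nearest to Taf15 in log2 difference were Ms4a2, a chain of the high-affinity IgE receptor (−1.43), Rbbp4, a histone chaperone (−1.47), and Vash1, a tubulin carboxypeptidase (−1.504). Ms4a2 and Vash1 had 1 detected probe, and the other probes of Rbbp4 gave −1.96 and −0.19. Nearest to Raly were Hsd3b4, a steroid-metabolising enzyme (−1.21, other probe −0.30), Bysl, a ribosome assembly factor (−1.21, other probes −0.28 and 0.06), and Sh2b3, an adaptor of cytokine signalling (−1.24, 1 detected probe). Likeness here is only the gap in 1 difference over 2 arrays, at most 0.08.

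No difference of that size was measured in the wider set of genes whose proteins work with the FET proteins, RALY and TDP-43. Over the FET, Raly and partner lists, 84 genes other than the 4 were measured, 77 of them brighter. By the brightest probe of each gene, their differences ran from −0.35 (Hnrnpd) to 0.49 (Dgcr8). The median was −0.06, against −0.03 over all 12852 genes. At least 1.5-fold different in either direction by that probe were 0 of the 84, where 1.26% of brighter genes and 6.05% of all genes were. Other probes are not counted here, and another Ddx3x probe, at −0.70, was more than 1.5-fold lower. Most of the 84 were brighter genes, and 0 is close to the share among those, so nothing particular to these genes is read from it.

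The abundant hnRNP proteins related to TDP-43, which coat nuclear RNA and steer splicing, lay a little lower. With Tardbp counted, 7 of 8 listed genes were measured. By their brightest probes the median was −0.23, and 0 of 7 lay above the median of all genes. Some of their other probes lay above it. Hnrnpd, an AU-rich element binding protein, had 10034 with BSP-II and 11111 untreated, a difference of −0.35 from its only probe. Hnrnpab was at −0.25 (other probes −0.18 and −0.13), Hnrnpa3 at −0.24 (other probes between −0.30 and 0.02) and Hnrnpdl at −0.23 (other probes −0.15 and −0.36). Agilent's error for a difference had a median of 0.21 over all detected spots, so most of these values are of about that size.

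TFIID, the complex that TAF15 can join, was level. Of 16 listed subunits, 12 were measured. They had a median of 0.06, and 7 of 12 lay above the median of all genes. Taf13 had 768 with BSP-II and 560 untreated, a difference of 0.25, and Taf5 was at −0.21, with −0.26 and −0.22 at its other probes. Taf6 (0.14) and Taf11 (0.14, other probe 0.18) lay slightly above. The 10 measured of 12 listed subunits of RNA polymerase II, which FET proteins bind through its tail, had a median of −0.06, with Polr2i highest at 0.17 and Polr2c lowest at −0.15. Polr2b was at 0.12 (other probe 0.04) and Polr2l at −0.13.

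The U1 snRNP, the particle that recognises the start of introns and that FET proteins contact, had a median of −0.10 over 12 of 13 listed genes, with 2 of 12 above the median of all genes. Luc7l, a splice site selection factor of the U1 particle, was lowest at −0.35 (other probe −0.37), followed by the core protein gene Snrpb at −0.20 and the U1-specific Snrpa (−0.17, other probes between −0.13 and −0.02) and Snrnp70 (−0.17). Paraspeckles are nuclear bodies built on a long noncoding RNA, in which FET proteins are found. The genes of their proteins, 15 of 15 measured, had a median of −0.01. Matr3 gave 0.33 at its brightest probe and −0.03 at the other. Zc3h6 was at 0.48 with low signals of 65.5 with BSP-II and 40.6 untreated, Pspc1 at 0.20 and Sfpq at −0.18.

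The Microprocessor cuts primary microRNA transcripts, and FET proteins and TDP-43 associate with it. All 6 of its listed genes were measured and had a median of −0.003, within which Dgcr8, the RNA-binding partner of the nuclease Drosha, had 344 with BSP-II and 212 untreated, a difference of 0.49 from 1 probe. Srrt was at −0.20, and the helicase genes Ddx17 and Ddx5 at −0.09 and 0.07, with 0.27 and −0.02 at their other probes. Genes for the nuclear import and arginine methylation of FET proteins had a median of −0.08 over 7 of 8 listed. The import receptor genes Tnpo1 and Tnpo2 were at −0.11 and 0.09, the importin gene Kpnb1 at −0.18 (other probe 0.002) and the methyltransferase gene Prmt5 at −0.23. Stress granule proteins, which meet FET proteins and TDP-43 in the cytoplasm, had a median of −0.02 over all 15 listed genes. Ddx3x was at −0.34 (other probe −0.70), Caprin1 at −0.32 (other probe 0.05), Pabpc1 at −0.20 and Tia1 at 0.23 (other probes 0.31 and 0.02).

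**Figure D4:**
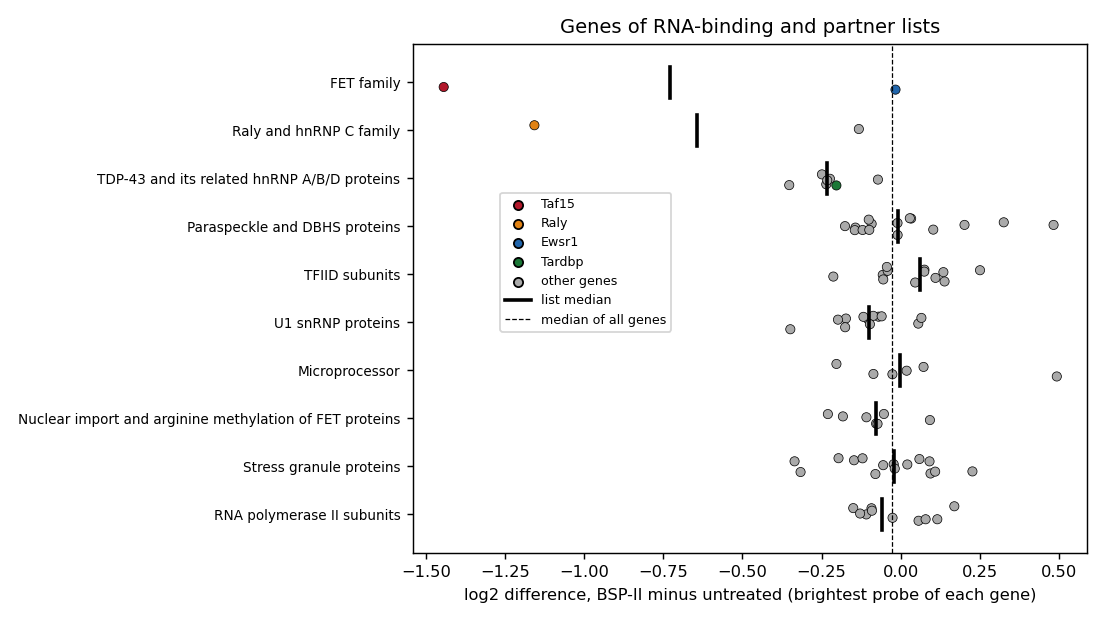
Log2 difference (BSP-II minus untreated) of the brightest probe of each measured gene, by list; thick bars are list medians and the dashed line is the median of all genes, −0.03. Taf15 (−1.44) and Raly (−1.16) stand at the far left, and the other 84 genes with Ewsr1 and Tardbp lie between −0.35 and 0.49.

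The differences of the 4 genes were computed again under 8 other ways of processing the same files. Taf15 stayed between −1.504 and −1.32 and Raly between −1.16 and −1.04, so both were at least 2-fold lower in each. In the authors' own value table they were at −1.32 and −1.04. Scaling each array to its median, which added 0.12 to every difference, turned the brighter Ewsr1 probe to 0.11, where 75th percentile scaling gave −0.02, so its sign was not settled. The other Ewsr1 probe ran from 0.02 to 0.18. The 2 Tardbp probes on transcript NM_145556 remained below 0, between −0.22 and −0.05, and the third remained above 0, between 0.07 and 0.20.

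**Figure D5:**
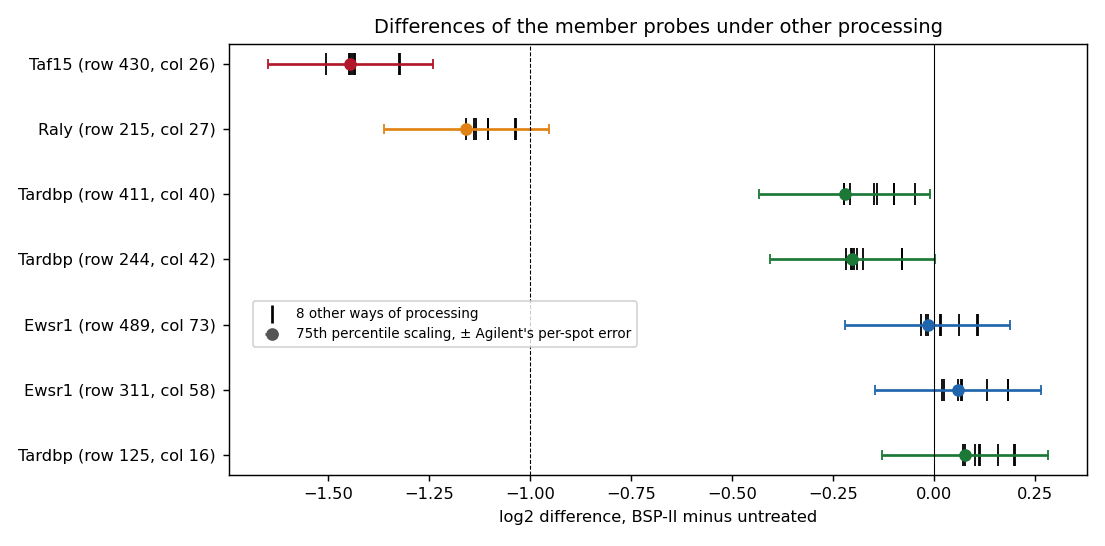
Log2 difference (BSP-II minus untreated) of each detected probe of the 4 genes, with the value after 75th percentile scaling as a point, Agilent's per-spot error as a bar and 8 other ways of processing as ticks; the dashed line marks 2-fold lower. All ticks of Taf15 (−1.504 to −1.32) and Raly (−1.16 to −1.04) lie left of the dashed line, and those of Ewsr1 and Tardbp lie between −0.22 and 0.20.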

How the data were processed

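Cy3-labelled RNA was read on 1-colour Agilent arrays, both on 1 slide. Spots were quantified by Agilent Feature Extraction (version 10.5.1.1 in the submitters' processing notes). Deposited as intensity, per the file headers, are the processed signal of each spot with its error and the raw median brightness of spot and local background; deposited flags mark outlier spots and spots well above background. The authors' value table is on a log2 scale and matches the log2 of the processed signal shifted by 1 constant per array (−4.94 BSP-II, −4.85 untreated) within 0.0001 for 99.7% of its 23296 probes, so scale and direction were found from the values; how the constants were set is not stated. Its medians are 2.99 (BSP-II) and 2.88 (untreated).

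Probes were named by unversioned accession through a RefSeq table (GRCm38.p6, for names only, since the grid was built on mm9): 25097 of 41174 probes gave 1 gene. Control spots and 189 outlier spots were left out, and spots of 1 probe averaged. Each gene of a list is given by its brightest probe. Named were all probes of the 4 genes, Ralyl and Hnrnpc, up to 4 genes of each other list with the largest difference, the 3 brighter genes nearest to Taf15 and Raly and, chosen after their values were seen, marker genes not detected. Some listed genes are not reported here. Members and lists were chosen with earlier results of these data known. Steps were tested on simulated data. Alternatives were median, quantile and loess scaling, normexp (offset 50, limma 3.58.1), raw signal, local medians, kept outliers and the authors' table. Depth is signal over background; with 1 array per condition no p-value is possible. Python 3.11.15 and R 4.3.3 were used.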

Additional observations from a re-analysis of the deposited data

How the results depend on the processing

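The 7 detected probes of Taf15, Raly, Ewsr1 and Tardbp moved by less than Agilent's per-spot error in each of the 8 alternatives tried for them. Scaling to the median added 0.12 to every difference, and the authors' table gave nearly the same values (Taf15 −1.323 and −1.322). Neither could therefore move a probe by more than that error. Keeping the outlier spots could not either, since none of them belonged to these genes. Counts of probes at least 2-fold different moved more: 297 were lower and 69 higher (18.9% higher) with 75th percentile scaling. The share higher was 31.7% with each array scaled to its median. In the authors' values there were 119 lower, and 43.9% of those different were higher. Their table holds 23296 probes against the 24455 detected here, so these counts are over another set of probes. With normexp 33 were lower and 20 higher (37.7%), and with the raw signal 51 and 20. Among brighter probes 26 were lower and 7 higher, and without a filter on dim probes 1570 and 804 (33.9%). Of the list medians, those of T cell and fibroblast markers moved by more than the error, and with normexp they were −0.047 and −0.063 where 75th percentile scaling gave −0.27 and −0.34. The cause was not tested. No paired analysis was possible because each condition has 1 array. Dim spots limit what can be seen: the lowest signal called well above background was 7.66 with BSP-II and 11.8 untreated. The differences of Taf15 and Raly rest on 1 spot each.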
